A study of Mus musculus with 4 samples.

Results

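Genes for plasma proteins of the liver parenchyma were followed in cultures that hold Kupffer cells, which are macrophages resident in the liver sinusoids, together with SL4, a colon carcinoma line of the mouse. The genes were Alb, Apoa1, Apoa2, Apoc3, Apoe, Ttr, Trf, Fgb, Mup3 and Ahsg. Members were all probe sets that the platform annotation gives to 1 of these 10 symbols alone, which came to 16 of the 45037 probe sets and covered 9 of the 10 genes, among 18193 genes with such probe sets. Trf had 1 probe set, listed together with Srprb, and so has no value here.

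Kupffer cells were sorted by CD45, CD11b and F4/80 from 12-week-old female C57BL/6 mice and kept for 8 hours with SL4 cells of the same strain, 100000 cells of each kind, in medium with serum and antibiotics. The 4 groups crossed genotype with culture. Kupffer cells were wild type or Clec4n-/-, which lack Dectin-2, and each genotype was grown apart from the SL4 cells or mixed with them. In the separate cultures the RNA of both cell types was mixed, so every array holds RNA of both, and SL4 cells carried no deletion in any group. How many mice or cultures stand behind an array is not given in the sources used here, and SL4 is a single line. With 1 array per group, none of the 4 carries an error of its own.

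Hepatocytes make most of the proteins dissolved in plasma. Albumin is the main carrier protein of blood, apolipoproteins coat lipoprotein particles, fibrinogen forms clots, and their genes are read mainly under the liver-enriched factors HNF4A, FOXA and C/EBP. Macrophages are a second known source of apolipoprotein E, while albumin, transthyretin and the major urinary proteins are textbook products of hepatocytes.

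RefSeq promoters of assembly GRCm38.p6 were given for 7 of the 10 genes, Alb, Apoa1, Apoa2, Apoe, Fgb, Mup3 and Ahsg, and not for Apoc3, Ttr and Trf. The 120 bases before the annotated start are shown for the 3 genes to which the results below return, Alb for its level signal, Apoa1 for its culture comparison and Mup3 for its genotype comparison. Capitals mark matches on either strand to 3 motifs. The letters searched were TATANA for the TATA box, TGTTTAC for the FOXA site and CCAAT for the box of that name.
Alb, chr5:90460750-90460869, plus strand: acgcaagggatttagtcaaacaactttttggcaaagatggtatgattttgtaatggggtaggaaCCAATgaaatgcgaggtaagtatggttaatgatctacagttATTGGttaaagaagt
Apoa1, chr9:46228510-46228629, plus strand: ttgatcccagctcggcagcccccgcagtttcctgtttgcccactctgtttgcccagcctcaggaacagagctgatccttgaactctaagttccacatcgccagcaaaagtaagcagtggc
Mup3, chr4:62087318-62087437, minus strand: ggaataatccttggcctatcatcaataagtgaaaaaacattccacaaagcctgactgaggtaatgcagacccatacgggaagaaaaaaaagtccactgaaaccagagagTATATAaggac
The Alb window held 2 CCAAT boxes, at 52 to 56 bases before the start and, on the other strand, at 11 to 15 bases, and neither overlaps another motif. The Mup3 window held 1 TATA box, 6 to 11 bases before the start and read on both strands. The Apoa1 window held none of the 3 motifs. Of 32851 promoter windows of this length, 21.3% held a CCAAT box and 1.36% the FOXA site, and 3605 windows held the TATA box. A match describes the letters in the window and is not a measured binding site.

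Signals are deposited probe set intensities on a linear scale with no fixed unit. Signals under a floor of 76.1, the overall median when the 4 arrays are pooled, are not ordered here. A ratio with 1 of its 2 arrays at or under the floor is given as "at least", being a bound, and none is given with both there. Levels are compared between arrays for 1 probe set and not between probe sets, and mean signal serves only to choose which probe sets of a list are named. Of the 16 member probe sets, 4 lay above the floor in all 4 arrays, 8 in some arrays and 4 in none. Those in all 4 arrays were 1 each of Alb, Apoa1, Apoa2 and Ttr, and those in none were the probe sets of Apoc3, Fgb and Ahsg and Mup3 1427249_x_at. Counts over the 12 that passed are given as descriptions only, since a probe set can pass through the array where it is high.

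**Figure D1:**
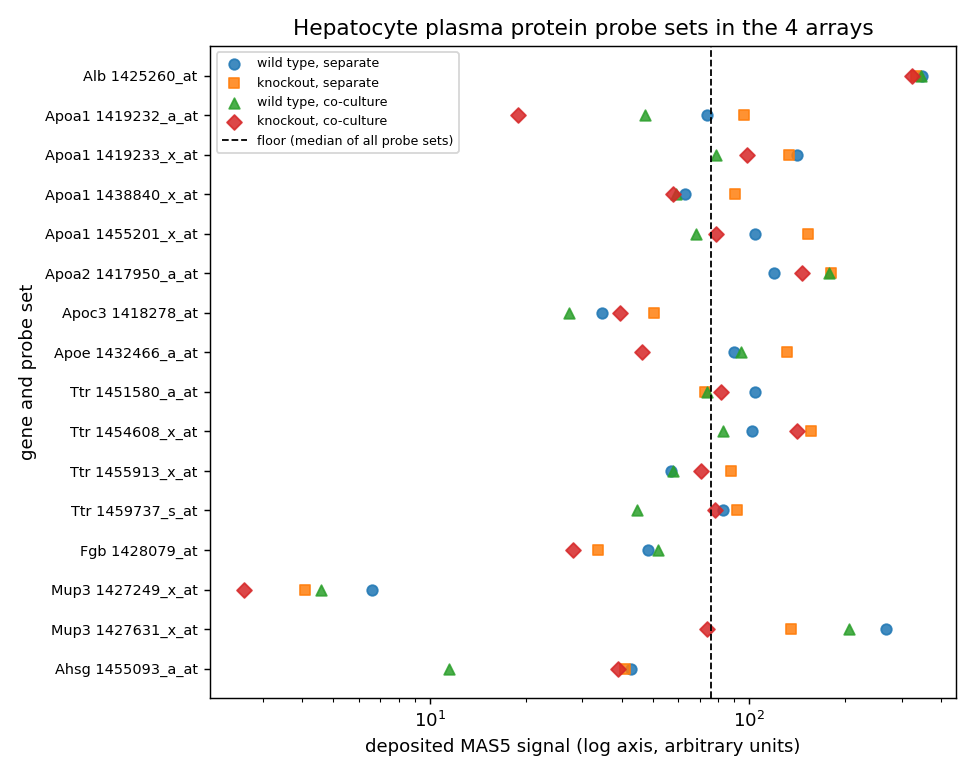
Deposited signal of each of the 16 probe sets (rows, gene and probe set) on a log axis, with 1 point for each of the 4 arrays and a dashed line at the floor of 76.1. The Alb points lie together between 324 and 347, those of Apoa2 all lie above the floor, those of Apoe lie on both sides of it, and those of Mup3 1427631_x_at span 73.8 to 268.

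Albumin gave the steadiest reading of the group. Alb (1425260_at), the carrier protein of plasma, read 347 in wild-type separate culture, 334 in knockout separate culture, 344 in wild-type co-culture and 324 in knockout co-culture. The 4 arrays differed by no more than 1.07-fold, and in the lowest of them the signal still lay above 2 times the floor, which holds for no other member probe set. In the additive limma fit of culture and genotype over all 24189 probe sets above the floor in at least 1 array, the log2 change with co-culture was -0.03 ± 0.18 (SE, 4 arrays), Benjamini-Hochberg adjusted p = 0.96, and that of the knockout was -0.07 ± 0.18, limma adjusted p = 0.95. With 1 array a group the fit takes its error from the departure from additivity, with 1 residual degree of freedom, and borrows spread across probe sets.

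Transthyretin, the carrier of thyroid hormone and of retinol-binding protein, has 4 probe sets, which share a target and are not replicates. 1454608_x_at read 102 and 156 in wild-type and knockout separate culture and 83.0 and 141 in wild-type and knockout co-culture. Both knockout arrays were higher than both wild-type arrays, by 1.53-fold in separate culture and 1.70-fold in co-culture. The knockout effect on this probe set had a log2 change of 0.69 ± 0.20 (SE) and an unadjusted limma p of 0.0028, and did not pass after adjustment (limma adjusted p = 0.23). 1459737_s_at read 82.8 and 91.8 in wild-type and knockout separate culture and 44.6 and 78.4 in co-culture. 1455913_x_at read 56.9 and 87.6 in separate culture and 57.8 and 70.6 in co-culture, so it was above the floor in 1 array only. 1451580_a_at had another order, with 104 and 72.8 in separate culture and 73.7 and 81.5 in co-culture. The 4 probe sets thus gave no single order of the genotypes. 1454608_x_at and 1455913_x_at carry the _x_at suffix, which marks probes that also match other transcripts.

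Major urinary proteins are small carriers of pheromones that the liver secretes. Mup3 1427631_x_at read 268 in wild-type separate culture, 135 in knockout separate culture, 205 in wild-type co-culture and 73.8 in knockout co-culture. Both wild-type arrays lay above both knockout arrays. The knockout signal was 1.98-fold lower in separate culture and at least 2.69-fold lower in co-culture. In co-culture this was 1 of 9 member probe sets with a ratio at least 2-fold lower and 0 were at least 2-fold higher, where over all 23507 probe sets 0.191% were at least 2-fold lower and 0.136% higher. Only 3 of the 9 had a brighter array at 2 times the floor and could reach 2-fold at all, and among all probe sets that could, 0.238% were lower and 0.169% higher. In separate culture 0 of 12 member probe sets were 2-fold higher or lower, where 0.177% and 0.168% of all were, or 0.218% and 0.207% of those that could reach it.

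In the limma fit the log2 change of Mup3 1427631_x_at with the knockout was -1.21 ± 0.22 (SE), adjusted p = 0.038, and 0.0785% of all probe sets were called lower and 0.0661% higher. It was the 1 call among the 12 fitted member probe sets. An unadjusted limma p under 0.05 was found for 2 of the 12 and for 2238 of all 24189 fitted probe sets. The call was lost under each of 5 other settings, with limma adjusted p between 0.0536 without a floor and 1.0 without culture in the fit. The log2 change with co-culture was -0.61 ± 0.22, limma adjusted p = 0.13. The second Mup3 probe set, 1427249_x_at, read 6.61, 4.06, 4.57 and 2.63 in wild-type separate, knockout separate, wild-type co-culture and knockout co-culture, all far under the floor. Both carry the _x_at suffix, which marks probes that also match other transcripts, and the Mup genes are a family of near-identical copies, so which of them the signal comes from is uncertain.

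The genes nearest to Mup3 in pattern were Klc4, Sec22a, Gm20300, Jsrp1 and Il12rb1, by the distance between floored log2 signals centred on their mean over the 4 arrays, among 10636 genes. Their distances were 0.528 to 0.655, against a median of 1.38 over all genes compared. Klc4 read 171 and 88.9 in wild-type and knockout separate culture and 138 and 74.2 in co-culture. With 4 arrays this is a description of 4 values.

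Apolipoprotein A-I is the structural protein of high-density lipoprotein. The 2 of its 4 probe sets that lay above the floor in both separate arrays were lower in co-culture with either genotype. Choosing them by their separate arrays favours that direction. 1419233_x_at read 142 in wild-type separate culture against 78.6 in co-culture, and 133 against 98.3 with knockout cells, 1.80-fold and 1.36-fold lower. 1455201_x_at read 104 in wild-type separate culture against 68.2 in co-culture, and 153 against 78.8 with knockout cells, at least 1.37-fold and 1.94-fold lower in co-culture. For these probe sets both separate arrays lay above both co-culture arrays. For 1455201_x_at the wild-type co-culture array lay under the floor, which fixes the direction of its ratio with wild-type cells. Both probe sets carry the _x_at suffix, so their probes also match other transcripts.

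For the other Apoa1 probe sets both wild-type arrays lay under the floor. 1419232_a_at read 73.7 and 47.4 in wild-type separate culture and co-culture and 96.6 and 18.9 in knockout. 1438840_x_at read 63.2 in wild-type separate culture against 59.2 in co-culture, and 90.5 against 57.6 with knockout cells. Each was above the floor in the knockout separate array alone, which fixes the direction of its ratio with knockout cells. The 4 probe sets share a target and are not replicates.

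In the limma fit Apoa1 1455201_x_at had a log2 change with co-culture of -0.70 ± 0.19 (SE) and an adjusted p of 0.043, and 1419233_x_at of -0.64 ± 0.20 and an adjusted p of 0.071. Of the 12 fitted member probe sets 1 was called, lower, where 3.03% of all probe sets were called lower and 2.44% higher. An unadjusted limma p under 0.05 was found for 3 of the 12 and for 4558 of all 24189 fitted probe sets. The call on 1455201_x_at was lost under each of 5 other settings, with limma adjusted p between 0.0856 with quantile normalization and 0.995 with a floor at 2 times the median. The knockout effect on it was 0.30 ± 0.19, limma adjusted p = 0.69.

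**Figure D2:**
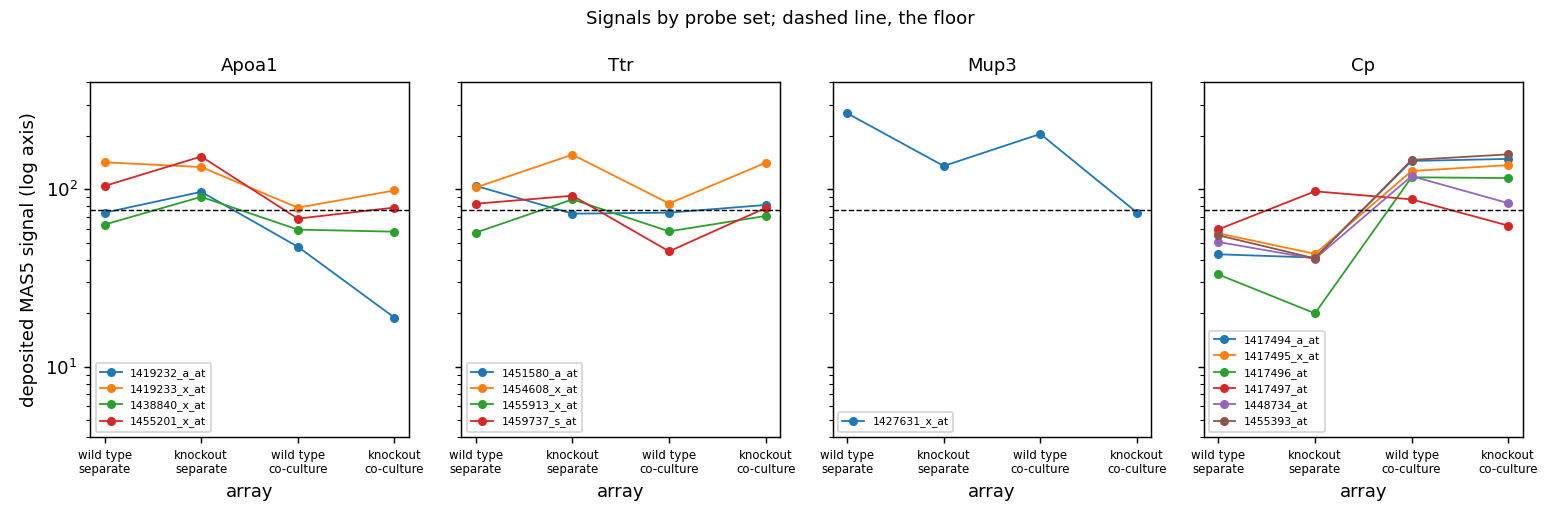
Deposited signal on a log axis in the 4 arrays, 1 line per probe set, for Apoa1, Ttr, Mup3 1427631_x_at and the 6 Cp probe sets above the floor in at least 1 array, with a dashed line at the floor of 76.1. Lines only join the points of a probe set. The Apoa1 lines of 1419233_x_at and 1455201_x_at are lower in both co-culture arrays, and the Mup3 line is lower in both knockout arrays.

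Apolipoprotein A-II, the second protein of high-density lipoprotein, did not follow Apoa1. Apoa2 (1417950_a_at) read 119.6 and 180.2 in wild-type and knockout separate culture and 178 and 147 in wild-type and knockout co-culture. The signal was 1.49-fold higher in co-culture with wild-type cells and 1.23-fold lower with knockout cells, and the separate and co-culture arrays overlapped. The log2 change with co-culture was 0.14 ± 0.24 (SE), limma adjusted p = 0.83, and that of the knockout was 0.16 ± 0.24, limma adjusted p = 0.90.

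Apolipoprotein E, a ligand of the LDL receptor family that macrophages also secrete, lay close to the floor. Apoe (1432466_a_at) read 89.6 and 132 in wild-type and knockout separate culture and 94.3 and 46.2 in wild-type and knockout co-culture. Knockout separate culture was highest and knockout co-culture lowest, with the wild-type arrays between them. The co-culture effect was -0.36 ± 0.21 (SE, log2), limma adjusted p = 0.39. Apoc3 (1418278_at), an inhibitor of lipoprotein lipase, read 34.7 and 50.3 in wild-type and knockout separate culture and 27.4 and 39.6 in co-culture, all under the floor.

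The remaining members also stayed under the floor. Fgb (1428079_at), the beta chain of fibrinogen, read 48.1 and 33.8 in wild-type and knockout separate culture and 52.0 and 28.0 in co-culture. Ahsg (1455093_a_at), the mineral-binding glycoprotein fetuin-A, read 42.6 and 41.0 in separate culture and 11.5 and 39.0 in co-culture. No ratio is given for these.

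Over the members as a set, the co-culture comparison had 0 of 9 probe sets at least 2-fold higher or lower with wild-type cells, where 0.829% of all probe sets were higher and 0.453% lower, and 0 of 12 with knockout cells, where 0.626% were higher and 0.566% lower. Of those, 3 and 4 could reach 2-fold, and among all probe sets that could, 1.02% were higher and 0.558% lower with wild-type cells and 0.772% and 0.699% with knockout cells.

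**Figure D3:**
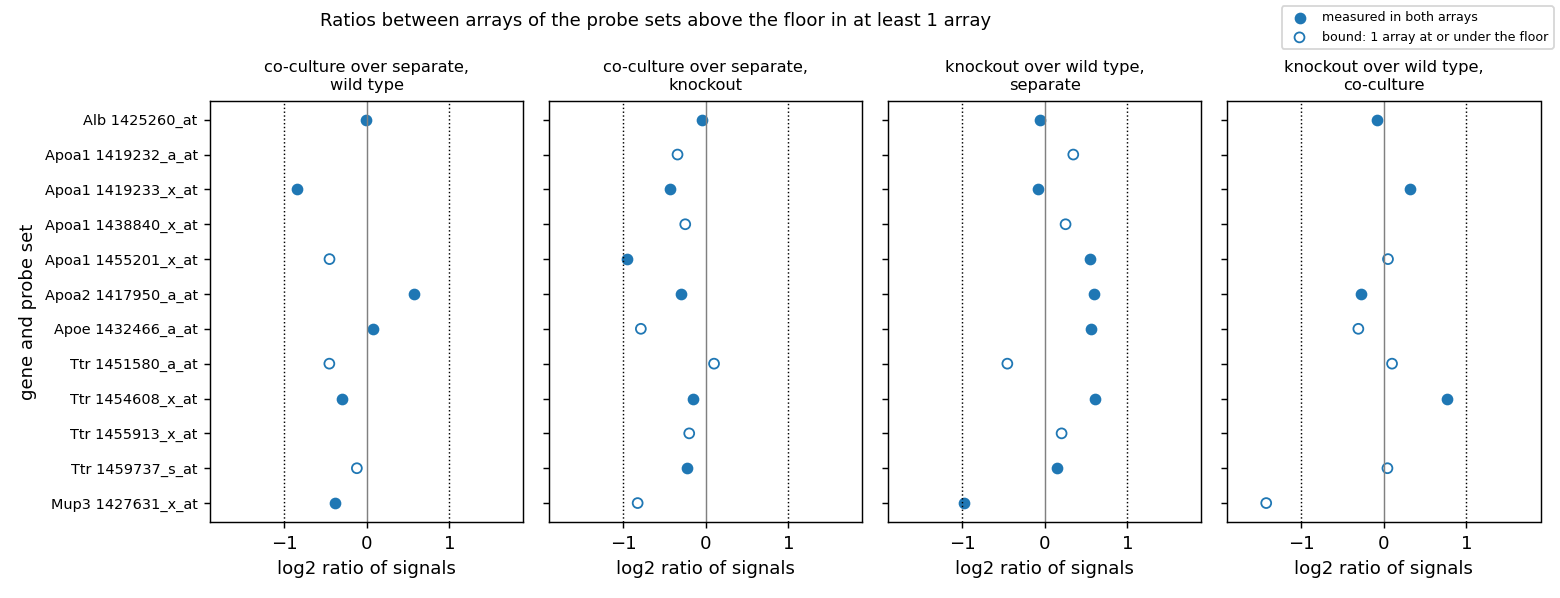
Log2 ratio of signals for the 12 member probe sets above the floor in at least 1 array (rows) in each of the 4 comparisons between arrays. Filled points were measured in both arrays, open points are bounds with 1 array at or under the floor, dotted lines mark 2-fold; Mup3 in co-culture is the 1 point past them.

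Most other hepatocyte genes were at or under the floor, and a few were bright. Of 61 further plasma protein genes with a probe set of their own, 53 were at or under the floor in all 4 arrays, among them Apoh, Serpinc1, Hpx and both other fibrinogen chains, Fga and Fgg. Fga (1424279_at), the alpha chain, read 30.5 to 38.0, and Fgg (1416025_at), the gamma chain, 25.1 to 55.9. Of 37 genes of hepatocyte metabolism and uptake, 29 were at or under the floor throughout and 3 were above it in all 4 arrays. Glul, the glutamine synthetase of many cell types, read 1991 to 2393 (1426236_a_at) and 405 to 522 (1426235_a_at), and Asl (1448350_at), an enzyme of the urea cycle and of arginine synthesis, 492 to 555. None of these passed in either limma effect (adjusted p of 0.18, 0.30 and 0.76 for co-culture). The third gene above the floor in all 4 arrays was Hao1 (1420420_at), at 84.7 to 119. Cyp2e1 (1415994_at), an abundant hepatocyte cytochrome, read 1.13 to 21.7 and Cps1 (1455540_at), the first enzyme of the urea cycle, 2.11 to 23.0. Hnf4a, a master factor of hepatocytes, read at most 20.2 in any of 4 probe sets. Albumin, Glul and Asl stood above the floor in all 4 arrays, as did all 13 housekeeping genes, so this does not set them apart.

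The 3 probe sets with the highest mean signal among the other plasma protein genes were of Fetub, Rbp4 and Masp2. Fetub (1449555_a_at), a paralogue of Ahsg, read 1274 and 1391 in wild-type and knockout separate culture and 1169 and 1189 in co-culture. Rbp4 (1426225_at), the retinol carrier that binds transthyretin, read 688 to 741, and Masp2 (1451759_at), a protease of the lectin pathway of complement, 485 to 671. None of these passed in either limma effect (adjusted p of 0.25, 0.92 and 0.52 for co-culture). Another Masp2 probe set, 1420524_a_at, read 1.35 to 3.60, far under the floor. Lcat (1417043_at), at 188 to 321, and Serpind1 (1418680_at), at 90.4 to 117, were also above the floor in all 4 arrays. Fabp1 (1448764_a_at), the liver fatty acid-binding protein, read 128 in wild-type separate culture and 24.8 to 31.0 in the other arrays. Another Fabp1 probe set, 1417556_at, read 5.84 to 49.3, under the floor in all 4 arrays. Fabp1 is named after its values were seen, as are Cp, Cebpa, Itga5, Vldlr, Lrp1, Clec4f, Timd4 and the hepatocyte genes under the floor. So are Hao1, Lcat and Serpind1.

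Ceruloplasmin, the copper-carrying ferroxidase of plasma, was called in the culture fit, the 1 such gene of that list. Cp 1455393_at read 55.0 and 40.7 in wild-type and knockout separate culture and 146 and 157 in co-culture, at least 1.92-fold and at least 2.06-fold higher. Its log2 change was 0.99 ± 0.19 (SE), limma adjusted p = 0.0042. Both separate arrays were raised to the floor for the fit, so the change is a bound and its error depends on the floor. Cp 1417494_a_at and 1417495_x_at were called as well, with limma adjusted p of 0.0058 and 0.017. Of 8 Cp probe sets 6 were above the floor in at least 1 array, and the 3 calls, all higher, stand beside 2.44% of all probe sets called higher. Each of the 3 had both separate arrays under the floor and entered the fit through co-culture alone, which fixes its direction. Without a trend of variance on signal all 3 calls were lost (limma adjusted p of 0.117 to 0.14). With a floor at 2 times the median the call on 1455393_at was lost too (limma adjusted p = 0.952). 1417494_a_at and 1417495_x_at lay under that higher floor in all 4 arrays and were not fitted with it. The call on 1417495_x_at was also lost with quantile normalization (limma adjusted p = 0.0596) and without the block (limma adjusted p = 0.0662).

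Among 19 hepatocyte transcription factor genes, 14 were at or under the floor in all arrays. Cebpb (1418901_at), which encodes a C/EBP factor of the acute-phase response and of many other cell types, read 650 and 612 in wild-type and knockout separate culture and 1218 and 1334 in co-culture. Both co-culture arrays lay above both separate arrays, and the log2 change was 1.02 ± 0.10 (SE), limma adjusted p = 5.9e-06, a call that was lost without the trend (limma adjusted p = 0.122). Another Cebpb probe set, 1427844_a_at, read 11.7 to 41.0, under the floor in all 4 arrays. Cebpa (1418982_at), the C/EBP factor of resting hepatocytes, read 96.4 to 115. Stat3, which carries the acute-phase signal of interleukin-6, read 423 to 597 (1426587_a_at) and 291 to 401 (1460700_at) and was not called (limma adjusted p of 0.29 and 0.48 for co-culture).

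Of 19 genes for receptors and partners of the member proteins, 11 were above the floor in all 4 arrays. Tfrc (1452661_at), the receptor that takes up transferrin, read 6825 to 7104. Lrp1 (1448655_at), an endocytic receptor for apolipoprotein E remnants, read 993 and 1043 in wild-type and knockout separate culture and 1353 and 1538 in co-culture, a log2 change of 0.50 ± 0.08 (SE), limma adjusted p = 0.0012. Itga5 (1423267_s_at), an integrin subunit, was higher in co-culture at a log2 change of 0.51 ± 0.09, limma adjusted p = 0.0030, and Vldlr (1434465_x_at), a lipoprotein receptor, lower at -0.77 ± 0.21, limma adjusted p = 0.043. Of 48 probe sets of this list 29 were fitted, and these were the 3 calls, 2 higher and 1 lower, where 2.44% of all fitted probe sets were called higher and 3.03% lower. Each was lost without the trend (limma adjusted p of 0.181, 0.178 and 0.146) and without the block (limma adjusted p of 0.0777, 0.134 and 0.135), and Vldlr also with quantile normalization (limma adjusted p = 0.0712). Lrp1, Itga5 and Vldlr each have other probe sets on the array, none of them called. Vldlr 1434465_x_at carries the _x_at suffix, so its probes also match other transcripts.

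**Figure D4:**
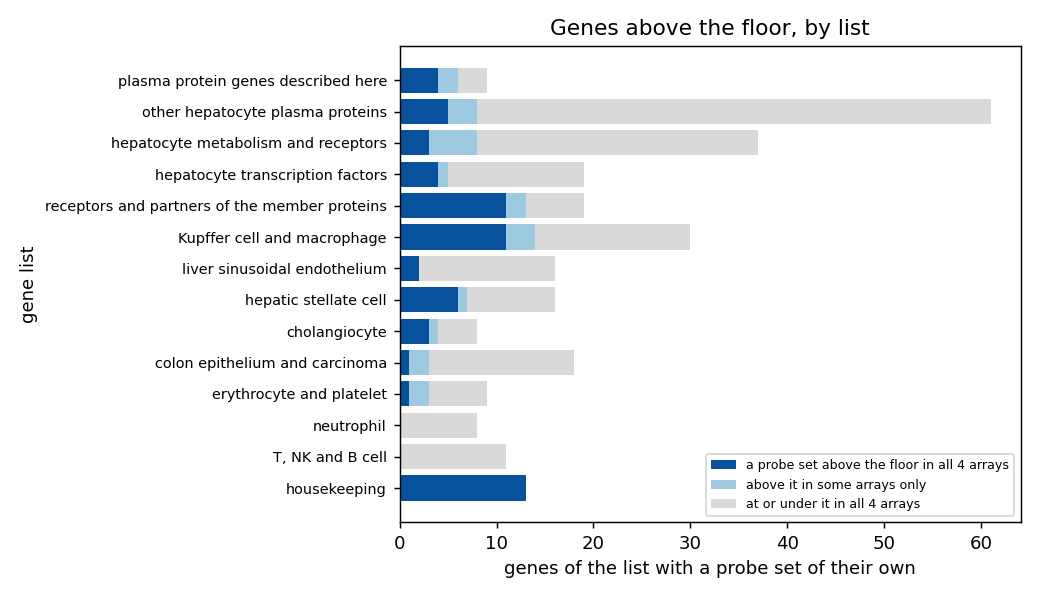
Number of genes with a probe set of their own in each list, split by whether a probe set lay above the floor of 76.1 in all 4 arrays, in some arrays only, or in none. Of 61 further plasma protein genes 53 are in the grey part, while all 13 housekeeping genes lie above the floor in all 4 arrays.

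The arrays as a whole limit these readings. Array medians were 72.5 to 78.4, and all 13 housekeeping genes were above the floor in every array, with a median log2 ratio of -0.15 for knockout over wild type in separate culture. Of 30 Kupffer cell and macrophage genes, 11 were above the floor in all 4 arrays and 16 in none, among them the Kupffer cell markers Clec4f (1449905_at, 35.4 to 58.0) and Timd4 (1455318_at, 1.63 to 20.2). Those with the highest mean signal were Id3 (1416630_at), a transcriptional regulator, at 1960 to 2232, Cd53 (1448617_at), a tetraspanin of leukocytes, at 615 to 793, and Hmox1 (1448239_at), the heme oxygenase, at 431 to 598. C1qb (1437726_x_at), a chain of complement C1q made by macrophages, read 100.3 and 147 in wild-type and knockout separate culture and 264 and 211 in co-culture, 2.63-fold and 1.44-fold higher, with a log2 change of 0.96 ± 0.24 (SE), limma adjusted p = 0.026. That call, the 1 in the list, was lost with quantile normalization, without the trend and without the block (limma adjusted p of 0.0815, 0.214 and 0.17). Of 49 probe sets of the list 15 were fitted, where 2.44% of all fitted probe sets were called higher. C1qb 1437726_x_at carries the _x_at suffix, and the other C1qb probe sets were not called. The summed signal of the Kupffer cell and macrophage list was 5335 and 5689 in wild-type and knockout separate culture and 6272 and 6049 in co-culture, while that of the members was 1685 and 1792 in separate culture and 1429 and 1325 in co-culture. Id3 alone gave 1960 to 2232 of the Kupffer cell and macrophage sums. Of the member sums Alb gave 324 to 347 and Mup3 1427631_x_at 73.8 to 268. The sums also add signals under the floor, and 6 and 7 of the 16 member probe sets lay above it in wild-type and knockout co-culture. Summed signals of hepatocyte metabolism genes were 4152 and 3977 in separate culture and 4691 and 4340 in co-culture, and Glul and Asl made up 73.1% to 76.0% of them. The part of these lists in the member results was not tested. Fewer cells of a type and less RNA per cell cannot be told apart in such mixed samples.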

How the data were processed

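The authors deposited linear intensities, made with Affymetrix Expression Console 1.4 and MAS5, per the submitters' processing notes. The arrays share a trimmed mean (2% off each end) of 497 to 498, so the values are relative. Detection calls were not used here. The platform annotation gave 1 symbol to 34945 probe sets, several to 932 and none to 9160. All 16 member probe sets matched RefSeq (GRCm38.p6) by Entrez number.

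Signals were raised to the floor and log2-transformed, so fitted changes and their errors depend on the floor where an array lay under it. Array ratios were called at 2-fold, with no test. Culture and genotype effects were fitted additively with limma 3.58.1 (R 4.3.3; lmFit, eBayes with a trend of variance on signal), with Benjamini-Hochberg adjustment over 24189 probe sets, called under 0.05. On simulated arrays of that size the culture fit called 47 of 50 probe sets changed 2-fold and all 50 at each larger change. It also called 27 unchanged ones, which are false calls. These counts hold for the simulated noise only and give no power for the deposited arrays. There the culture calls fell from 1322 to 14 without the trend.

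In the lists described, the rule named the 3 probe sets with the highest mean signal and those above the floor throughout with a 2-fold ratio; genes named after their values were seen are marked as such. Named with Mup3 were the 5 genes nearest to the member with the largest range. Members and lists were chosen with earlier results of these data known. The alternatives tried were no floor, a floor at 2 times the median, quantile normalization, gene medians, no trend and no block.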

Additional observations from a re-analysis of the deposited data

Results flagged for a closer look

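In 4 member probe sets the log2 ratio pointed in opposite directions in the groups compared, which with 1 array a group was not tested. Co-culture over separate culture was 0.57 with wild-type and -0.30 with knockout cells for Apoa2 (1417950_a_at), 0.07 and -0.79 for Apoe (1432466_a_at), and -0.46 and 0.10 for Ttr (1451580_a_at). Knockout over wild type was 0.59 in separate culture and -0.28 in co-culture for Apoa2, 0.55 and -0.31 for Apoe, -0.46 and 0.10 for Ttr 1451580_a_at, and -0.09 and 0.32 for Apoa1 (1419233_x_at). The negative Apoe values and all values of Ttr 1451580_a_at are bounds with 1 array at or under the floor, so each of those differences is at least of the printed size. The same 4 arrays give both sets of ratios.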

How the results depend on the processing

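The 1 member ratio past 2-fold, Mup3 1427631_x_at for the knockout in co-culture, kept its direction under the settings tried. A change of floor alone cannot reverse a direction. With quantile normalization 2 smaller log2 ratios for co-culture changed sign. Apoe with wild-type cells went from 0.07 to -0.04, and Alb with knockout cells from -0.04 to 0.01. Without a floor, member probe sets at least 2-fold lower numbered 1 in co-culture with wild-type cells, 2 with knockout cells, and 3 in knockout over wild type in co-culture, where 1 was higher. Quantile normalization gave 1 lower probe set for the knockout in separate culture, Mup3 1427631_x_at at a log2 ratio of -1.01. With a floor at 2 times the median 0 were lower for the knockout in co-culture. The limma calls among members, 1 for culture and 1 for genotype, became 0 and 0 without a floor, with a floor at 2 times the median, with quantile normalization, without the trend and without the block. Over all probe sets the limma culture calls were 1322, and 14 without the trend, 208 without the block, 724 with quantile normalization, 1053 without a floor and 1537 with the higher floor. The genotype calls were 35, and 0, 0, 1, 18 and 85 in that order, where the unadjusted p was under 0.05 for 1616 and 887 probe sets at the 2 counts of 0. The cause was not tested. The number of arrays limits the precision, most member signals lie within 2 times the floor, and no left-out array leaves a residual degree of freedom in the additive fit.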
